A study of Mus musculus with 11 samples.

Results

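TGF-β and BMP ligands, their receptors and a BMP target gene were followed in the pubertal mouse mammary gland. The set held 10 genes chosen by symbol, matched through the Entrez identifiers of the count table: the TGF-β ligands Tgfb1, Tgfb2 and Tgfb3, the BMP ligands Bmp4 and Bmp7, the activin and inhibin subunit gene Inhbb, the receptors Tgfbr1, Tgfbr2 and Tgfbr3, and the target Id1. All 10 were among the 27179 genes of the table, and all 10 were among the 17370 genes that passed the filter on low counts. Basal and luminal epithelial cells had been sorted from microdissected terminal end buds (TEBs), the bulbous growing tips of the pubertal ductal tree, and from the ducts behind them. Every group came from 5-week-old female C57BL/6 mice that carried E-cadherin-GFP, so the controls carried the reporter too. Both populations were Lin-CD29+CD24+, with high GFP taken as luminal and low GFP as basal, and the luminal fraction was not divided further. There were 3 basal duct, 3 basal TEB, 2 luminal duct and 3 luminal TEB libraries, each from a pool of mice. The authors left out a luminal duct sample that yielded too few cells, so replicates 1 and 3 represent that group.

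TGF-β ligands are secreted in a latent form and, once released, bind the type II receptor Tgfbr2, which recruits and phosphorylates the type I receptor Tgfbr1, which in turn activates Smad2 and Smad3. BMPs signal through related receptors to Smad1, Smad5 and Smad9 and switch on the Id genes, while activins, the dimers of inhibin beta subunits, use activin receptors. In the mammary gland TGF-β is known as an inhibitor of ductal growth, and BMPs are known for roles in bud formation and in the basal layer.

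The promoters of Tgfbr1 and Tgfbr2, the receptor pair that rose together in luminal TEB cells, and of Inhbb, the member with the highest luminal level relative to basal cells, are shown because the data turn on these genes. RefSeq promoter windows of build GRCm38.p6 were matched for 6 of the 10 members (Tgfb1, Tgfb2, Bmp4, Inhbb, Tgfbr1 and Tgfbr2). The 250 bases before the annotated start are printed 5′ to 3′ on the strand of the gene, with GC boxes (GGGCGG, or CCGCCC on the other strand) and CCAAT boxes (CCAAT, or ATTGG on the other strand) in capitals. No annotated exon reached into these windows. RefSeq held a pair of Tgfbr1 windows, and the upstream one is printed.
Tgfbr1, chr4:47352972-47353221, plus strand: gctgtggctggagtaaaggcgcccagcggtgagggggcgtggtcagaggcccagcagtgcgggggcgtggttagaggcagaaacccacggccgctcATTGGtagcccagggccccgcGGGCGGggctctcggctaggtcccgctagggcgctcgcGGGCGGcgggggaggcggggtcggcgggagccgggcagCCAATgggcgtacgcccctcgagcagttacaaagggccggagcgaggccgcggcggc
Tgfbr2, chr9:116175364-116175613, minus strand: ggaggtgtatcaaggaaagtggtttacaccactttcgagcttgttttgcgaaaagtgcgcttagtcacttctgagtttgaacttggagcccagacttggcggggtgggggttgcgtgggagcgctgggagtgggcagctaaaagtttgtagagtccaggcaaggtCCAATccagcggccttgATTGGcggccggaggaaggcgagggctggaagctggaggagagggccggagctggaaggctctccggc
Inhbb, chr1:119422249-119422498, minus strand: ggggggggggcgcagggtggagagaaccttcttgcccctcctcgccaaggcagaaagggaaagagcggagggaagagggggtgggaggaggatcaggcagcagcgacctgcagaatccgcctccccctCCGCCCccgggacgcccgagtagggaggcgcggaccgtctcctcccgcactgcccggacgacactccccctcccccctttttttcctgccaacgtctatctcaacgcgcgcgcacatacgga
The printed Tgfbr1 window held 2 GC boxes and the Inhbb window 1, whereas the Tgfbr2 window held 0, and 32.7% of all 32851 RefSeq windows held at least 1. Tgfbr1 and Tgfbr2 each had 2 CCAAT boxes, 1 in each orientation, against 33.8% of all windows with any. The capitals did not overlap each other. GC content was 74.8% for Tgfbr1, 58.4% for Tgfbr2 and 68% for Inhbb, where the median window had 52.4%. A TATA box (TATAAA, or TTTATA on the other strand), present in 12.4% of windows, was in none of these 3 windows. The other Tgfbr1 window, chr4:47385966-47386215 on the plus strand, held 0 GC boxes and 0 CCAAT boxes and had a GC content of 52.8%.

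Levels are in CPM, the count scaled by the effective (TMM) library size, and a change as a log2 fold change with its standard error (SE). The FDR is the Benjamini-Hochberg adjusted p-value of edgeR's quasi-likelihood test over all 17370 genes, and a gene was called when it was below 0.05. Libraries held 27989137 to 49221436 counts. Mitochondrial genes took 4.34 to 10.9% of the counts in 8 libraries, but 37.5% in basal TEB replicate 1, 28.5% in luminal duct replicate 3 and 17.8% in basal TEB replicate 3. The sort labels were checked against defining markers: the 7 basal markers summed to at least 5342 CPM in every basal library and at most 248 CPM in every luminal library, and the 9 luminal markers to at most 548 and at least 13083 CPM. Endothelial markers were highest in basal duct replicate 2 (165 CPM summed over 4 genes, against 1.02 to 35.4 in the other libraries), as were fibroblast markers (856 CPM over 7 genes). In sorted bulk samples, fewer cells of a type and less RNA per cell cannot be told apart.

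**Figure D1:**
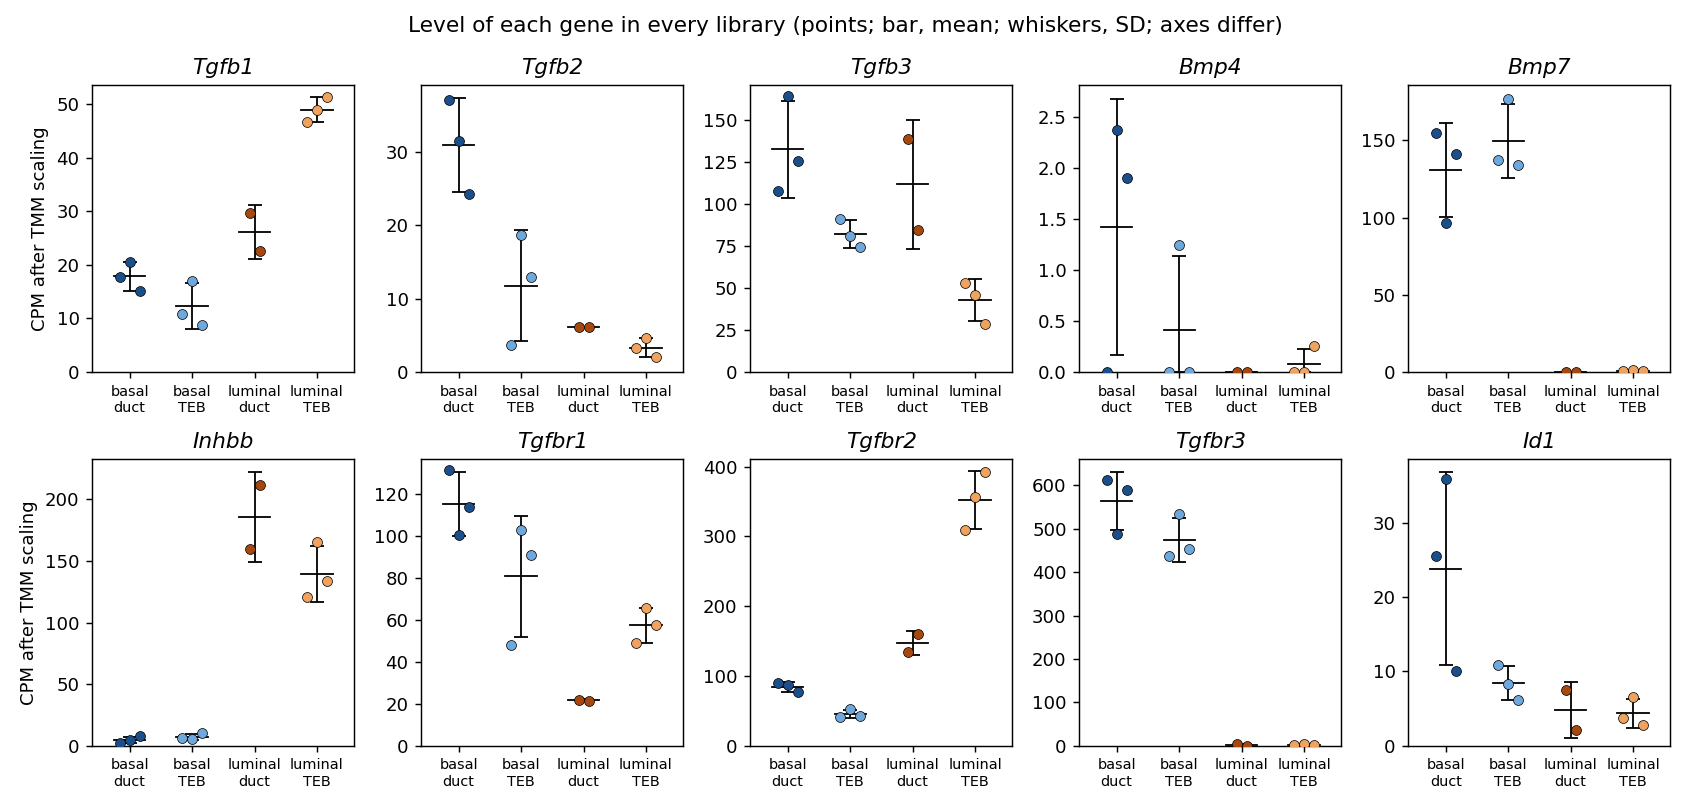
CPM after TMM scaling (linear axes that start at 0 and differ between panels) of the 10 genes in the 11 libraries. Points are libraries, horizontal bars group means and whiskers SD, cut at 0. Tgfbr2 was highest in the 3 luminal TEB libraries, and Bmp7 and Tgfbr3 were near 0 in all 5 luminal libraries.

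Of the TGF-β ligands, Tgfb1 was highest and Tgfb3 lowest in the luminal TEB libraries, and Tgfb2 was higher in basal than luminal cells. Tgfb1 measured 17.8, 20.6 and 15.1 CPM in basal ducts, 10.9, 17.1 and 8.82 CPM in basal TEBs, 29.7 and 22.6 CPM in luminal ducts, and 46.7, 48.9 and 51.5 CPM in luminal TEBs. All luminal TEB libraries stood above all others, and the basal groups overlapped. Basal cells had less Tgfb1 than luminal cells in TEBs, by a log2 fold change of -1.995 (SE 0.29, FDR = 0.000282, edgeR), which is 3.99-fold, and this call held in all 23 alternative analyses. In ducts the same contrast was -0.55 (SE 0.31, FDR = 0.226, edgeR). Neither TEB contrast passed, with 0.91 (SE 0.32, FDR = 0.182, edgeR) in luminal cells and -0.54 (SE 0.28, FDR = 0.406, edgeR) in basal cells.

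Tgfb2 measured 37.1, 31.5 and 24.3 CPM in basal ducts, 3.75, 18.7 and 12.9 CPM in basal TEBs, 6.15 and 6.13 CPM in luminal ducts, and 3.23, 4.69 and 2.08 CPM in luminal TEBs. The basal duct libraries were the highest, and basal TEB replicate 1 lay within the luminal range. Tgfb2 was higher in basal than luminal cells of ducts, by 2.33 (SE 0.64, FDR = 0.0207, edgeR), and of TEBs, by 1.83 (SE 0.54, FDR = 0.0263, edgeR). The duct call was lost without basal duct replicate 1, luminal duct replicate 1 or luminal duct replicate 3 (log2 fold changes of 2.19 to 2.34, FDR = 0.0649 to 0.0907, edgeR). The TEB call was lost without basal TEB replicate 2 or 3 or luminal TEB replicate 1 or 3 (1.31 to 1.82, FDR = 0.0666 to 0.113, edgeR). Within basal cells the TEB and duct libraries did not overlap, but the difference of -1.39 (SE 0.53) did not pass (FDR = 0.268, edgeR).

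Set per length, Tgfb3 was the most abundant of the 3 isoforms in all 8 libraries outside the luminal TEBs. Its levels were 108, 164 and 126 CPM in basal ducts, 91.1, 81.0 and 74.2 CPM in basal TEBs, 139 and 84.7 CPM in luminal ducts, and 53.3, 46.1 and 28.9 CPM in luminal TEBs. TEB libraries were below duct libraries in both cell types, without overlap. In luminal cells Tgfb3 fell by 1.39 on the log2 scale from ducts to TEBs (SE 0.29, FDR = 0.0401, edgeR), a 2.62-fold difference. That call was lost without any 1 of basal duct replicates 1 and 3, basal TEB replicate 3, luminal duct replicate 1 and the 3 luminal TEB replicates (log2 fold changes of -1.60 to -0.99, FDR = 0.0556 to 0.142, edgeR). Without basal TEB replicate 1 and luminal duct replicate 3, the libraries with the highest mitochondrial shares, it stayed (-1.68, FDR = 0.0285, edgeR). A fit of the luminal groups alone ended it (-1.41, FDR = 0.0676, edgeR). In basal cells the change was -0.69 (SE 0.26, FDR = 0.263, edgeR). Basal TEB cells had more Tgfb3 than luminal TEB cells, by 0.94 (SE 0.26, FDR = 0.0201, edgeR), a call lost without basal TEB replicate 1 or luminal TEB replicate 2 or 3 (0.71 to 0.98, FDR = 0.0526 to 0.091, edgeR).

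The make-up of the TGF-β ligand transcripts was described per kilobase of counted transcript. Tgfb3 took 71.9 ± 5.1% (SD, n = 3) of the summed Tgfb1, Tgfb2 and Tgfb3 level in basal ducts, 74.7 ± 7.8% (n = 3) in basal TEBs and 70.0 ± 3.7% (n = 2) in luminal ducts, and 34.0 ± 7.8% (n = 3) in luminal TEBs. There Tgfb1 took 64.1 ± 8.2%, with 57.6, 61.5 and 73.3% in the 3 libraries against 25.1 and 29.1% in the luminal duct libraries. The groups did not overlap, and the exact two-sided permutation test gave p = 0.1 (n = 3 and 2), the smallest p these group sizes allow, and 0.2 after Benjamini-Hochberg adjustment over 4 such tests. In basal cells the Tgfb1 share was 17.7% in TEBs and 15.8% in ducts (exact permutation p = 0.7, n = 3 and 3). The summed level itself was 54.2 ± 9.4 CPM per kb in basal ducts and 32.6 ± 3.6 in basal TEBs (exact permutation p = 0.1, n = 3 and 3, again the smallest possible), and 46.8 ± 13.7 in luminal ducts and 36.7 ± 2.8 in luminal TEBs (exact permutation p = 0.3, n = 2 and 3).

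**Figure D2:**
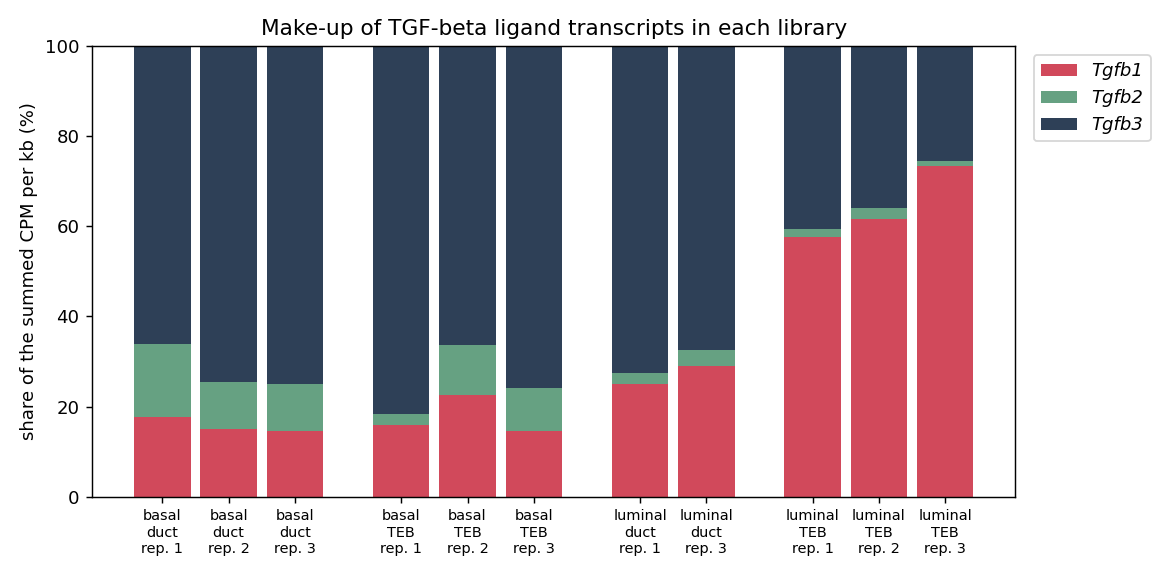
Share (%) of Tgfb1, Tgfb2 and Tgfb3 in their summed CPM per kb, as stacked bars for each of the 11 libraries. Tgfb3 is the largest segment in all 8 basal and luminal duct libraries, and Tgfb1 in the 3 luminal TEB libraries.

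Bmp7, a BMP ligand, was found almost wholly in the basal libraries. It measured 154, 96.2 and 141 CPM in basal ducts and 138, 177 and 134 CPM in basal TEBs, and the groups overlapped (log2 fold change of 0.20, SE 0.34, FDR = 0.855, edgeR). Luminal duct libraries gave 0 and 2 counts (0 and 0.0822 CPM), and luminal TEB libraries 24, 59 and 20 counts (0.538, 1.12 and 0.385 CPM). The pooled ratio of basal to luminal ducts was 4534, with a 95% interval of 1255 to 37442 that covers counting error only. In TEBs the basal level was 217-fold higher than the luminal one (log2 fold change of 7.76, SE 0.47, FDR = 4.77e-07, edgeR).

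Luminal TEB cells held more Bmp7 than luminal duct cells, with a pooled ratio of 23.6 (95% counting interval 6.37 to 197; FDR = 0.0324, edgeR). The call was lost without any 1 of basal duct replicates 1 and 3, basal TEB replicate 3, luminal duct replicate 1 and the 3 luminal TEB replicates (FDR = 0.0507 to 0.0925, edgeR). Leaving out both basal TEB replicate 1 and luminal duct replicate 3 also ended it (FDR = 0.0517, edgeR), as did limma voom (FDR = 0.262) and a replicate block in the model. These luminal levels were small beside basal ones: 0.457% of the basal level in TEBs and 0.0315% in ducts. The 7 basal markers reached 0.221 to 2.07% (median 0.513%) of their basal level in luminal TEBs and 0.389 to 2.37% (median 0.840%) in luminal ducts, so luminal Bmp7 lay within the marker range in TEBs and below it in ducts. The part of residual basal cells in the luminal values was not tested.

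Bmp4, the other BMP ligand, was near the detection limit. It had 0, 90 and 74 counts in basal ducts (0, 2.37 and 1.90 CPM), 0, 59 and 0 counts in basal TEBs (0, 1.24 and 0 CPM), 0 and 0 in luminal ducts, and 0, 0 and 13 in luminal TEBs (0.250 CPM in the last). Libraries of the same group were split between 0 and clear detection. A count of 0 allows up to 3 counts, or 0.0572 to 0.173 CPM across the libraries, for counting error only. No comparison of Bmp4 was called (FDR = 0.188 to 0.822, edgeR), and reads from the overlapping Gm15217 cannot be told apart from it without strand.

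Inhbb, which encodes the beta B subunit of activin B and inhibin B, was a luminal gene in both structures. It measured 160 and 211 CPM in luminal ducts and 120, 165 and 133 CPM in luminal TEBs, against 2.65, 4.32 and 7.64 CPM in basal ducts and 6.12, 5.60 and 10.2 CPM in basal TEBs. No basal library came near a luminal one. The basal level was lower by 38.2-fold in ducts (log2 fold change of -5.26, SE 0.42, FDR = 5.83e-06, edgeR) and by 19.1-fold in TEBs (-4.25, SE 0.39, FDR = 8.1e-06, edgeR), and both calls held in all 23 alternatives. The basal level was 2.62% of the luminal one in ducts and 5.23% in TEBs, inside the range of 9 luminal markers in ducts (0.184 to 7.10%, median 2.06%) and in TEBs (0.318 to 6.94%, median 0.854%). TEB and duct libraries overlapped in both cell types, at 0.59 (SE 0.35, FDR = 0.47, edgeR) in basal cells and -0.41 (SE 0.37, FDR = 0.606, edgeR) in luminal cells.

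Among the receptors, Tgfbr2 differed between structures in both cell types. This type II receptor, which binds TGF-β, measured 90.3, 86.6 and 76.7 CPM in basal ducts, 40.9, 52.4 and 43.1 CPM in basal TEBs, 135 and 160 CPM in luminal ducts, and 309, 356 and 392 CPM in luminal TEBs. The 4 groups did not overlap, in the order basal TEB, basal duct, luminal duct, luminal TEB. In luminal cells Tgfbr2 rose 2.39-fold from ducts to TEBs (log2 fold change of 1.26, SE 0.19, FDR = 0.0122, edgeR), and in basal cells it fell by 0.89 on the log2 scale (SE 0.17, FDR = 0.0249, edgeR), or 1.86-fold. The difference between these changes, basal minus luminal, was -2.15 (SE 0.25) and passed its own test (FDR = 0.00563, edgeR). Without basal TEB replicate 1 and luminal duct replicate 3 the changes were 1.40 in luminal cells (FDR = 0.0196, edgeR), -0.82 in basal cells (FDR = 0.0465, edgeR) and -2.22 for their difference (FDR = 0.0102, edgeR).

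The Tgfbr2 calls differed in stability. The luminal call was lost without luminal TEB replicate 3 (1.15, FDR = 0.0748, edgeR). The basal call was lost without any 1 of basal duct replicates 1 and 2, basal TEB replicates 1 and 3, and luminal TEB replicates 2 and 3 (log2 fold changes of -0.92 to -0.82, FDR = 0.0509 to 0.131, edgeR). No single library ended the call on the difference. Scaling by library size alone ended all 3 calls (1.66 in luminal cells, FDR = 0.0825, -1.004 in basal cells, FDR = 0.272, and -2.66 for the difference, FDR = 0.0591, edgeR). Luminal cells had more Tgfbr2 than basal cells in ducts, where the basal minus luminal value was -0.80 (SE 0.18, FDR = 0.0072, edgeR), and in TEBs, where it was -2.95 (SE 0.18, FDR = 4.59e-07, edgeR), a 7.74-fold difference. With library size alone the duct value was -0.67 (FDR = 0.191, edgeR).

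Tgfbr1, the type I partner, measured 131, 101 and 114 CPM in basal ducts, 48.1, 103 and 91.2 CPM in basal TEBs, 22.1 and 21.5 CPM in luminal ducts, and 48.9, 65.7 and 57.8 CPM in luminal TEBs. Luminal ducts were lowest. Basal TEB replicate 1, the library with the highest mitochondrial share, lay below all 3 luminal TEB libraries, and the other basal libraries lay above them. In luminal cells Tgfbr1 rose 2.64-fold in TEBs (log2 fold change of 1.40, SE 0.30, FDR = 0.0447, edgeR). Leaving out any 1 library other than basal duct replicate 2 and basal TEB replicates 1 and 2 ended this call (1.28 to 1.48, FDR = 0.0578 to 0.159, edgeR), whereas it passed with both basal TEB replicate 1 and luminal duct replicate 3 left out (1.40, FDR = 0.0273, edgeR). It was also lost with mitochondrial genes removed (1.39, FDR = 0.0555, edgeR), in limma voom (1.39, FDR = 0.0691) and with a replicate block in the model. In basal cells the change was -0.51 (SE 0.25, FDR = 0.38, edgeR), and the difference between cell types, -1.91 (SE 0.39), did not pass (FDR = 0.065, edgeR). It passed without basal TEB replicate 1 or 2 or luminal duct replicate 1. Tgfbr1 was 5.30-fold higher in basal than luminal ducts (2.41, SE 0.31, FDR = 0.000162, edgeR), whereas in TEBs the value was 0.49 (SE 0.25, FDR = 0.185, edgeR) and became 0.75 without basal TEB replicate 1 (FDR = 0.0122, edgeR).

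Per kilobase, the ratio of Tgfbr2 to Tgfbr1 level was 0.876 ± 0.123 (SD, n = 3) in basal ducts, 0.722 ± 0.247 (n = 3) in basal TEBs, 8.02 ± 1.10 (n = 2) in luminal ducts and 7.30 ± 0.82 (n = 3) in luminal TEBs. Every luminal library had at least 6.41 times as much Tgfbr2 as Tgfbr1, and no basal library more than 1.02 times. The ratios of TEB and duct libraries overlapped within each cell type.

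Tgfbr3, or betaglycan, a co-receptor that presents TGF-β ligands, above all TGF-β2, to Tgfbr2 and also binds inhibin, was a basal gene. It measured 612, 487 and 590 CPM in basal ducts and 437, 533 and 452 CPM in basal TEBs, against 4.05 and 0.452 CPM in luminal ducts and 1.84, 3.83 and 1.35 CPM in luminal TEBs. Basal and luminal libraries were far apart, and TEBs and ducts overlapped within each. The basal level was higher by 7.90 on the log2 scale in ducts (SE 0.82, FDR = 3.14e-05, edgeR) and by 7.66 in TEBs (SE 0.67, FDR = 5.59e-06, edgeR). The duct value was 10.27 without luminal duct replicate 1. Luminal levels were 0.400% of basal ones in ducts and 0.493% in TEBs, within the range of the 7 basal markers given above. The TEB changes were -0.25 (SE 0.49, FDR = 0.878, edgeR) in basal and -0.01 (SE 0.60, FDR = 1, edgeR) in luminal cells. Tgfbr3 stood at 5.30 ± 0.82 times the per-kilobase level of Tgfbr2 in basal ducts and 8.27 ± 0.20 times in basal TEBs, without overlap.

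Id1, an inhibitor of basic helix-loop-helix transcription factors and a direct BMP target, had its highest mean level in basal ducts. It measured 25.5, 35.8 and 10.1 CPM in basal ducts, 10.8, 8.30 and 6.22 CPM in basal TEBs, 7.51 and 2.14 CPM in luminal ducts, and 3.77, 6.57 and 2.75 CPM in luminal TEBs. Basal ducts spread widely, and the highest value was in basal duct replicate 2, the library with the most endothelial marker counts, whose part in the value was not tested. Id1 was higher in basal than luminal ducts (2.30, SE 0.73, FDR = 0.042, edgeR). The call was lost without any 1 of basal duct replicates 1 and 2, basal TEB replicates 2 and 3, luminal duct replicate 3 and luminal TEB replicates 1 and 3 (1.66 to 2.30, FDR = 0.052 to 0.198, edgeR). Without luminal duct replicate 1, the value was 3.48, and without both basal TEB replicate 1 and luminal duct replicate 3 it was 1.66 (FDR = 0.142, edgeR). In TEBs the same contrast was 0.95 (SE 0.60, FDR = 0.288, edgeR). The TEB changes were -1.50 (SE 0.61, FDR = 0.294, edgeR) in basal and -0.15 (SE 0.67, FDR = 0.949, edgeR) in luminal cells.

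Counted over the set, 1 of 10 members was called between TEB and duct in basal cells (Tgfbr2, lower), where 1.32% of all genes tested were called, 0.167% higher and 1.16% lower. The median log2 fold change was -0.61 over the members and -0.03 over all genes. In luminal cells 4 of 10 were called, 3 higher (Bmp7, Tgfbr1 and Tgfbr2) and 1 lower (Tgfb3), against 1.41% of all genes, 0.639% higher and 0.771% lower. The medians were 0.45 over the members and 0.04 over all genes. The test of the difference between cell types called 1 member (Tgfbr2, more negative in basal cells), against 0.443% of all genes, 0.0806% positive and 0.363% negative. With library size alone as the scaling, 0 members were called in any of these 3 contrasts. The contrasts share libraries, so they are not independent of each other. The members and the pathway lists were chosen with earlier results of these data known. Their counts and medians, here and below, therefore describe the lists and are no test of enrichment. TEB and duct libraries did not overlap for 3 members in basal cells, against 20.8% of all genes tested. In luminal cells this held for 6 members, against 43.7% of all genes.

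**Figure D3:**
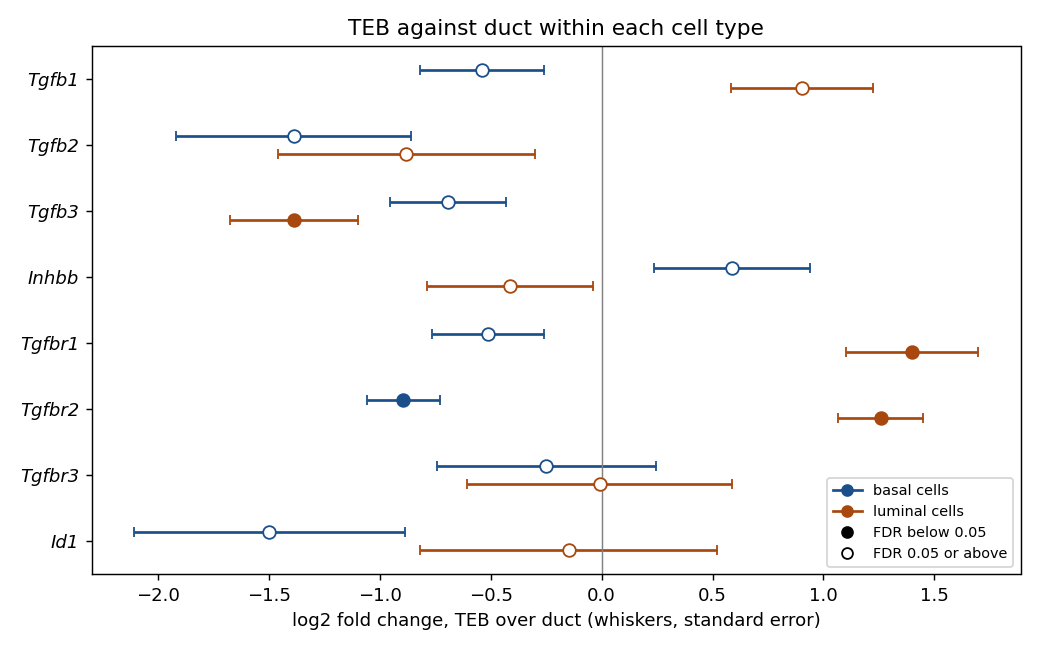
Log2 fold change of TEB over duct, with whiskers for 1 SE, in basal cells (blue) and luminal cells (brown). Filled points have an FDR below 0.05. Bmp4 and Bmp7 are left out because of luminal counts at or near 0. Tgfbr2 lies at -0.89 in basal and 1.26 in luminal cells, both filled.

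Other measurements moved with the TEB contrasts. Between duct and TEB libraries, the sum of 7 basal markers went from 15553 to 19176 CPM down to 5342 to 8297 CPM in basal cells and from 93.0 to 248 CPM down to 14.7 to 27.3 CPM in luminal cells. The 6 proliferation genes summed to 370 to 828 CPM in basal ducts and 1006 to 1475 CPM in basal TEBs, and to 479 to 499 CPM in luminal ducts and 1057 to 1200 CPM in luminal TEBs. Fibroblast markers ranged from 432 to 856 CPM in basal ducts, 227 to 413 CPM in basal TEBs, 6.03 to 259 CPM in luminal ducts and 11.7 to 53.9 CPM in luminal TEBs. Endothelial markers summed to 1.02 to 26.2 CPM in luminal ducts and 1.55 to 10.4 CPM in luminal TEBs. In basal cells, pericyte markers summed to 22.3 to 36.9 CPM in ducts and 1.15 to 15.6 CPM in TEBs. Pericyte markers overlapped in luminal cells, at 0 to 14.1 CPM in ducts and 0.648 to 2.23 CPM in TEBs. The 9 luminal markers summed to 469 to 548 CPM in basal ducts and 265 to 312 CPM in basal TEBs. The part of these values in the member changes was not tested.

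Between cell types 7 of 10 members were called in ducts, 5 higher in basal cells (Tgfb2, Bmp7, Tgfbr1, Tgfbr3 and Id1) and 2 lower (Inhbb and Tgfbr2), against 22.3% of all genes, 12.6% higher and 9.71% lower. In TEBs 7 of 10 were called, 4 higher in basal cells (Tgfb2, Tgfb3, Bmp7 and Tgfbr3) and 3 lower (Tgfb1, Inhbb and Tgfbr2), against 25.1% of all genes, 13.2% higher and 11.8% lower. Tgfb2, Bmp7, Inhbb, Tgfbr2 and Tgfbr3 were called in both structures, in the same direction. Basal and luminal libraries did not overlap for 8 members in ducts, against 46% of all genes. In TEBs this held for 6 members, against 49.8%.

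**Figure D4:**
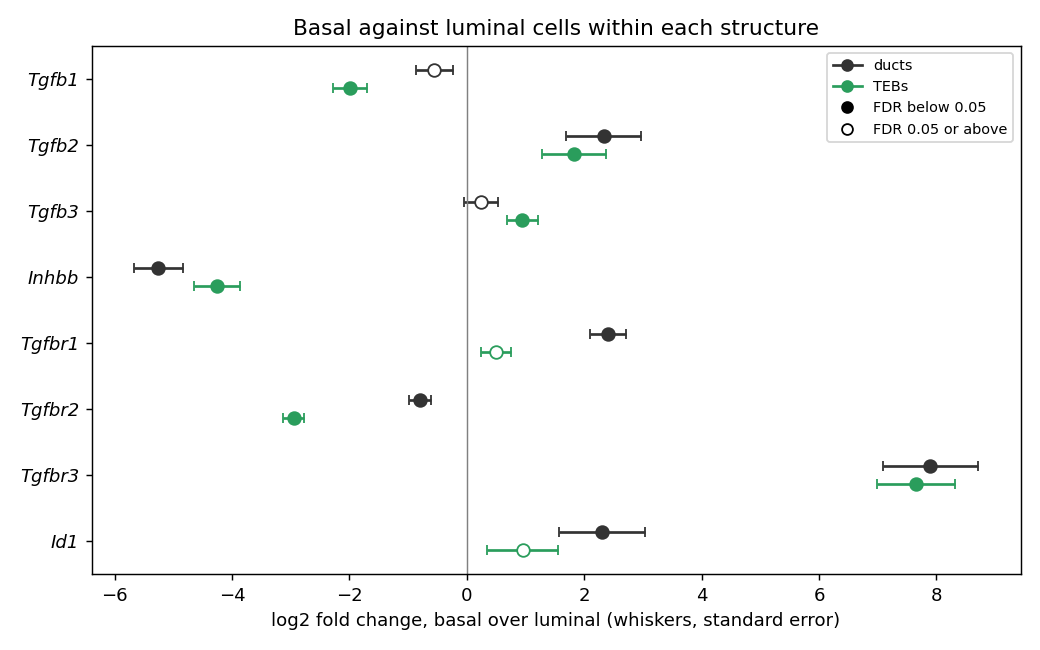
Log2 fold change of basal over luminal cells, with whiskers for 1 SE, in ducts (black) and TEBs (green). Filled points have an FDR below 0.05, and Bmp4 and Bmp7 are left out because of luminal counts at or near 0. Tgfbr3 lies near 8 and Inhbb at -5.26 and -4.25 in both structures, whereas Tgfb1 is filled only in TEBs and Tgfbr1 and Id1 only in ducts.

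The wider pathway was read from 82 other genes in 6 lists, of which 70 were tested. In basal cells 1 of 70 was called between TEBs and ducts, or 1.43% against 1.32% of all genes, and in luminal cells 2 of 70, or 2.86% against 1.41%. The basal one, which fell, was the activin and BMP type II receptor Acvr2a (from 101 to 50.1 CPM, log2 fold change of -1.01, SE 0.22, FDR = 0.0488, edgeR). In luminal cells both fell, namely Ltbp1, which tethers latent TGF-β to the matrix (88.7 to 24.4 CPM, -1.86, SE 0.33, FDR = 0.0227, edgeR), and Sostdc1, a secreted BMP and Wnt antagonist (5.32 to 1.84 CPM, -1.54, SE 0.29, FDR = 0.0265, edgeR). Sostdc1 averaged 136 CPM in basal ducts and 139 CPM in basal TEBs. The part of residual basal cells in its luminal values was not tested. Over the 23 alternatives 0 to 7 pathway genes were called in each cell type. Leaving out 1 library at a time gave 0 to 3 calls in basal cells and 0 to 7 in luminal cells, the 7 being without luminal duct replicate 1. The Acvr2a call was lost without any 1 of the 6 basal or the 3 luminal TEB libraries (-1.18 to -0.93, FDR = 0.0565 to 0.187, edgeR). The Ltbp1 call in luminal cells was lost without any 1 of the 3 luminal TEB libraries (-2.02 to -1.74, FDR = 0.0685 to 0.106, edgeR), and the Sostdc1 call without any 1 of those or luminal duct replicate 1 (-1.67 to -1.02, FDR = 0.0675 to 0.113, edgeR). The cell types differed in the change of Ltbp1, by 2.55 (SE 0.45, FDR = 0.033, edgeR), which was the single pathway gene called in that test. That call was lost without any 1 of basal duct replicate 1, basal TEB replicates 1 and 3 and the 3 luminal TEB replicates (2.36 to 2.70, FDR = 0.0673 to 0.114, edgeR), and when the pair of libraries with the highest mitochondrial share was left out (2.56, FDR = 0.0511, edgeR).

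Of the 10 genes listed under TGF-β latency and activation, edgeR's quasi-likelihood test called 0 between basal TEBs and ducts, with 5 at an unadjusted p under 0.05. DESeq2 called 4, limma voom 3 and the likelihood ratio test 3. Basal duct and TEB libraries did not overlap for Ltbp2, Ltbp3, Ltbp4, Itgb8 and Thbs1, all lower in TEBs. Nor did they for Ltbp1, which was higher in TEBs (63.3 to 89.3 CPM against 24.7 to 56.5 CPM). The other listed genes overlapped. Of all genes tested, 20.8% did not overlap. Values follow for Ltbp2, Ltbp4 and Thbs1, which were named after their values were seen. Ltbp2 shares the family name of Ltbp1, but whether it binds TGF-β was not examined. Ltbp2 measured 546, 675 and 508 CPM in basal ducts and 0.115, 61.6 and 12.2 CPM in basal TEBs (log2 fold change of -4.53, SE 1.13, FDR = 0.0871, edgeR). Ltbp4 measured 213, 200 and 166 CPM against 63.3, 85.2 and 54.3 CPM (-1.51, SE 0.33, FDR = 0.0508, edgeR). Thbs1, encoding thrombospondin 1, an activator of latent TGF-β, averaged 3315 CPM against 885 CPM (-1.91, SE 0.43, FDR = 0.0592, edgeR). Of the 14 Smads and regulators, edgeR's quasi-likelihood test called 0 between TEB and duct in either cell type, with 4 in basal and 3 in luminal cells at an unadjusted p under 0.05, and DESeq2 and limma voom each called 1 in basal and 0 in luminal cells. Of the 9 targets it called 0 as well, with 2 in each cell type at an unadjusted p under 0.05. DESeq2 called 1 target in each cell type, and limma voom 1 in basal and 0 in luminal cells.

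Between cell types, 26 of the 70 genes were called in ducts (22 higher in basal cells, 4 lower) and 24 in TEBs (18 higher, 6 lower). These are 37.1% and 34.3%, against 22.3% and 25.1% of all genes, and the counts by role are read beside those all-gene shares. Among 15 other ligands tested, edgeR called 0 in ducts (3 at an unadjusted p under 0.05, 3 called by DESeq2 and 1 by limma voom) and 2 in TEBs. These were Gdf9 (2.40 CPM in basal and 0.102 CPM in luminal cells, FDR = 0.0487, edgeR), and Inhba, the beta A subunit gene, with 1 count in all basal TEB libraries and 755 in the luminal ones (FDR = 0.0179, edgeR). The Inhba call was lost without basal TEB replicate 3 or luminal TEB replicate 2 (FDR = 0.0669 and 0.0547, edgeR), and the Gdf9 call without any 1 library other than basal TEB replicate 2 and the luminal duct replicates (FDR = 0.0607 to 0.148, edgeR). Inhba measured 3.43, 6.65 and 4.87 CPM in luminal TEBs and 0.819 and 0 CPM in luminal ducts, low beside Inhbb. Of 11 other receptors, 3 were higher and 1 lower in basal ducts, and 2 higher and 1 lower in basal TEBs. On the log2 scale, Acvr2a was higher in basal cells by 2.71 in ducts (FDR = 2.6e-05, edgeR) and 1.64 in TEBs (FDR = 0.000177, edgeR). Acvr1, a type I receptor for BMPs, was higher by 0.98 (FDR = 0.00373, edgeR) and 1.26 (FDR = 0.000206, edgeR). Acvr1b, an activin type I receptor, was higher in ducts by 0.91 (FDR = 0.0199, edgeR), a call lost without basal duct replicate 1 or 3 or luminal duct replicate 1 or 3 (0.76 to 0.92, FDR = 0.0601 to 0.0793, edgeR). Eng, or endoglin, a co-receptor of the same family as Tgfbr3, was lower in basal cells, with log2 fold changes of -1.95 in ducts (FDR = 0.0232, edgeR) and -3.11 in TEBs (FDR = 0.00101, edgeR). Its levels were 77.2 and 120 CPM in luminal ducts and 109, 99.0 and 116 CPM in luminal TEBs, against 8.74 to 51.6 CPM in the basal libraries, the opposite side from Tgfbr3. The 51.6 CPM was in basal duct replicate 2, the library with the most endothelial marker counts, whose part in the value was not tested. Basal duct replicates 1 and 3 had 8.82 and 16.2 CPM. The duct call for Eng was lost without basal duct replicate 3 (-1.71, FDR = 0.0826, edgeR) or luminal duct replicate 3 (-1.60, FDR = 0.131, edgeR).

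Of the 10 genes listed under TGF-β latency and activation, 4 were called in each structure, all higher in basal cells. Ltbp4 was higher by 5.82 on the log2 scale in ducts (FDR = 7.31e-06, edgeR) and 4.59 in TEBs (FDR = 3.99e-06, edgeR), and Thbs1 by 4.001 (FDR = 0.000289, edgeR) and 2.41 (FDR = 0.0015, edgeR). Thbs1 averaged 207 CPM in luminal ducts and 166 CPM in luminal TEBs. Itgav, encoding integrin alpha V, was higher by 1.87 (FDR = 0.00143, edgeR) and 1.65 (FDR = 0.000947, edgeR). Ltbp2 was higher in basal ducts by 4.403 (FDR = 0.034, edgeR), a call lost without any 1 of the 3 basal duct libraries, the luminal duct libraries or luminal TEB replicate 3 (4.15 to 4.70, FDR = 0.0503 to 0.149, edgeR), and Ltbp1 in basal TEBs by 1.59 (FDR = 0.00229, edgeR).

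Of 11 secreted and membrane antagonists, 7 were called in ducts and 5 in TEBs, all higher in basal cells. Fst, encoding follistatin, which neutralises activins, averaged 339 and 268 CPM in basal ducts and TEBs and 0.968 and 0.869 CPM in luminal ones (log2 fold changes of 8.36, FDR = 1.66e-06, and 8.27, FDR = 2.27e-07, edgeR). Fstl1, a follistatin-like gene, was higher in basal cells by 6.25 in ducts (FDR = 0.000863, edgeR) and 7.99 in TEBs (FDR = 5.02e-05, edgeR). Sostdc1 was higher by 4.66 (FDR = 3.58e-06, edgeR) and 6.24 (FDR = 1.5e-07, edgeR). Nbl1, a BMP antagonist, was higher by 5.38 in ducts (FDR = 0.00656, edgeR) and 2.94 in TEBs (FDR = 0.0303, edgeR). The TEB call for Nbl1 was kept in 15 of 23 alternatives. Bambi, a pseudoreceptor, was higher by 3.37 in ducts (FDR = 5.21e-05, edgeR) and 4.30 in TEBs (FDR = 2.23e-06, edgeR). The activin subunit gene Inhbb was thus high in luminal libraries and the activin antagonist Fst in basal ones.

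Of 14 Smads and regulators, 4 were higher and 1 lower in basal than luminal ducts, and 2 higher and 2 lower in TEBs. Smad1, a BMP effector, was higher in basal cells by 1.81 on the log2 scale in ducts (FDR = 0.00097, edgeR) and 1.16 in TEBs (FDR = 0.00534, edgeR). The repressor Tgif1 was lower, at -1.44 (FDR = 0.000214, edgeR) and -1.52 (FDR = 5.76e-05, edgeR), and Smad2, a TGF-β effector, was lower in TEBs, at -0.77 (FDR = 0.0407, edgeR). The Smad2 call was lost without any 1 of basal duct replicates 1 and 3, basal TEB replicates 1 and 3 and the 3 luminal TEB replicates (-0.82 to -0.58, FDR = 0.056 to 0.145, edgeR). Pmepa1, an inhibitor of TGF-β signalling, was higher by 1.04 in ducts (FDR = 0.00819, edgeR) and 0.78 in TEBs (FDR = 0.0162, edgeR). The duct call was lost without luminal duct replicate 1 (0.90, FDR = 0.0585, edgeR), and the TEB call without basal TEB replicate 1 or luminal TEB replicate 1 or 3 (0.53 to 0.76, FDR = 0.0566 to 0.0577, edgeR). Ski, a Smad co-repressor, was higher in ducts by 0.80 (FDR = 0.00568, edgeR).

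The 9 targets went both ways, with 4 higher and 2 lower in basal cells of each structure. Id4 was higher in basal cells by 7.49 in ducts (FDR = 5.62e-06, edgeR) and 8.29 in TEBs (FDR = 4.89e-07, edgeR), and Ccn2, a TGF-β target, by 5.62 (FDR = 4e-04, edgeR) and 4.51 (FDR = 0.000276, edgeR). Atoh8, a BMP target, had 699 counts in the basal and 1 in the luminal duct libraries (FDR = 0.0409, edgeR). Its call was lost without any 1 of the 3 basal duct, the luminal duct or basal TEB replicates 2 and 3 (FDR = 0.0509 to 0.154, edgeR). Id2 was higher in basal cells by 1.57 in ducts (FDR = 0.0278, edgeR) and 1.60 in TEBs (FDR = 0.0108, edgeR). Its calls were kept in 19 and 20 of 23 alternatives. The BMP targets Id3 and Msx2 were lower in basal cells of both structures. Id3 differed by -1.36 in ducts (FDR = 0.0307, edgeR), a call kept in 19 of 23 alternatives, and by -3.11 in TEBs (FDR = 0.000113, edgeR). Msx2 differed by -4.54 (FDR = 0.00062, edgeR) and -4.51 (FDR = 0.000425, edgeR).

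The genes with the most similar pattern were sought for the 6 members whose log2 CPM averaged 4 or more, by the root mean square (RMS) difference of centred log2 CPM over the 11 libraries, among 7857 candidate genes. Closest to Tgfbr2 were Slco2a1, a prostaglandin transporter gene, at an RMS of 0.236 and S100a14 at 0.301, where the median candidate was at 1.18. Slco2a1 averaged 136 CPM in basal ducts, 77.0 CPM in basal TEBs, 323 CPM in luminal ducts and 586 CPM in luminal TEBs, the same order as Tgfbr2. Tgfbr1 was closest to Timp2 (0.243) and Oxct1 (0.267), Tgfb1 to Gpx1 (0.213) and Mgrn1 (0.231), and Tgfb3 to Zfp36l2 (0.297) and Mtss2 (0.348). For Tgfbr3 the closest were the basal genes Cdh3 (0.420), encoding P-cadherin, and Trp63 (0.436), and for Inhbb they were Vill (0.508) and Rab25 (0.513). These are descriptions over libraries that share the 4 groups, and carry no test.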

How the data were processed

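Gene-level counts were deposited by the authors for 11 bulk polyA RNA-seq libraries (TruSeq RNA v2, unstranded): paired-end reads had been aligned to mm10 and counted per Entrez gene with Rsubread featureCounts (versions not given in the sources used here). The deposited other column, gene length, was used for CPM per kb. Symbols matched 93% of identifiers. Each library's own table equalled its column in the joint table. Genes were filtered with filterByExpr (minimum count 10), leaving 17370, scaled by TMM and fitted in 1 edgeR model of 4 groups and 11 libraries with the quasi-likelihood test. Software was R 4.3.3, edgeR 4.0.16, limma 3.58.1 and DESeq2 1.42.0. SEs were derived from the log2 fold change and the F statistic. The edgeR p-values rest on the spread between libraries of a group, each from a pool of mice. The main model held no pairing of libraries. The members, gene lists and tests were chosen with earlier results of these data known.

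All members are named. Pathway genes are named where called, up to 4 per role and comparison by absolute log2 fold change, beside latency genes named after their values were seen. Id2 in both structures, Id3 and Bambi in ducts and Nbl1 in TEBs are given past that limit, because they were called in both structures. The 2 closest genes by pattern are named per member. Alternatives covered scaling, filter, test, samples fitted, replicate block, mitochondrial genes and leaving out libraries. Coordinates are from GRCm38.p6, the build of mm10.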

Additional observations from a re-analysis of the deposited data

Results flagged for a closer look

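The change of Tgfbr2 from ducts to TEBs differed between basal and luminal cells: the basal minus luminal difference of log2 fold changes was -2.15 (FDR = 0.00563, edgeR quasi-likelihood test, Benjamini-Hochberg adjusted), and every TEB library lay below every duct library in basal cells and above in luminal cells. Ltbp1 differed the other way, by 2.55 (FDR = 0.033, edgeR). It measured 55.7, 24.7 and 56.5 CPM in basal ducts, 89.3, 63.3 and 67.6 CPM in basal TEBs, 101 and 76.4 CPM in luminal ducts, and 28.6, 25.4 and 19.2 CPM in luminal TEBs. Fstl3, a follistatin-like antagonist, was lower in all TEB than duct libraries of basal cells (3.47 to 5.31 against 10.2 to 14.9 CPM). In luminal cells the order was reversed, but luminal duct replicate 1 and luminal TEB replicate 1 were nearly equal (1.53 and 1.55 CPM, 67 and 69 counts). Luminal duct replicate 3 had 1 count, and the other luminal TEB libraries 1.89 and 1.85 CPM. The basal minus luminal difference of -2.75 did not pass its test (FDR = 0.372, edgeR).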

How the results depend on the processing

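Over 45 member values and 1026 recalculations, 918 kept direction and side of the threshold, 75 kept direction and lost the call, 15 gained one and 18 reversed, none of them a called value. The 23 alternatives (22 for the difference between cell types) gave these counts of members called where they moved by more than 1.5 times. In basal cells (1 called), library size alone, limma voom with sample quality weights and a fit of the compared groups gave 0. In luminal cells (4 called), library size alone gave 0, and limma voom, voom with quality weights and a fit of the compared groups gave 2. With a replicate block luminal cells had 2 called, Tgfb3 and Tgfbr2, without Bmp7 (FDR = 0.0696, edgeR) and Tgfbr1 (FDR = 0.0853, edgeR), and no other member call changed. Correlations of same-number deviations ran from -0.163 to 0.295 over 10 pairs, with 2 above 0.1. Deviations were centred on the means of very small groups, so this check cannot decide whether equal replicate numbers share a mouse pool. In ducts (7 called), library size alone gave 4. For the difference (1 called), library size alone gave 0, no filter and the likelihood ratio test 3, DESeq2 4, and leaving out both high mitochondrial libraries 2. Leaving out single libraries gave 0 to 1, 0 to 4, 5 to 7, 5 to 7 and 1 to 3 members called in basal TEB against duct, luminal TEB against duct, ducts, TEBs and the difference. Library size alone shifted the all-gene median (log2) to -0.16, 0.42, 0.19 and -0.35 in the first 4 comparisons, so changes there read relative to that shift.

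None of the values that reversed had been called. Luminal Tgfbr3 became 0.30 with library size alone, 0.034 with the likelihood ratio test, 0.39 with voom, 0.014 with quality weights and 0.024 in the compared groups, and ran from -0.79 to 2.37 over single left-out libraries. Luminal Id1 became 0.16 with library size alone and ran from -0.78 to 1.03. Tgfb3 between cell types in ducts became -0.067 without both high mitochondrial libraries and ran from -0.069 to 0.65. In the difference between cell types, Tgfb2 became 0.052 with quality weights, and Tgfbr3 became 0.59 without both high mitochondrial libraries and ran from -2.62 to 0.54. The cause of these changes was not tested. Depth limits Bmp4 and luminal Bmp7.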
